A study of Mus musculus with 3 samples.

Results

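The collagen gene family is described here across 3 microarrays of reprogramming mouse tail-tip fibroblasts. Its 38 members were chosen by name, with earlier results of these data known, and are set beside 20825 genes with a matched probe. They were found through the RefSeq accession of each probe, and each gene is given by its brightest probe. Of the 38 members, 37 were matched with 52 probes in all, and no probe was matched to Col12a1. The comparison was made between the interstitial fibrillar collagens (8 genes), the cartilage collagens (7), basement membrane collagen IV (6), the fibril-associated collagens outside cartilage, or FACITs (5), and the smaller classes of collagen VI (3), collagen VIII (2), the multiplexins (2), collagen VII (1) and the transmembrane collagens (4).

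Collagens are triple-helical matrix proteins assembled from alpha chains, each the product of its own gene. Fibrillar collagens build the load-bearing fibrils of skin, tendon and bone, collagen IV builds the sheet under epithelia and around muscle, nerve and vessels, and the FACITs sit on fibril surfaces. Collagens II, IX, X and XI mark cartilage, and dermal fibroblasts are known mainly for collagens I, III, V and VI. Fibroblasts lose part of their mesenchymal programme as they are reprogrammed.

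The fibroblasts (TTFs) came from 22-month-old mice lacking p16, a cell cycle inhibitor encoded by Cdkn2a (old p16-/-), from 22-month-old wild-type mice (old WT) and from 2-month-old wild-type mice (young WT). Every group was given Oct4, Sox2, Klf4 and c-Myc (4 factors), with RNA taken on day 8, so the cells are mixed reprogramming intermediates and no group was left without the factors. The design text speaks of 2 experiments on separate donors. Each group had 1 array here, so every difference lacks a replicate check and no p-value is given. Old p16-/- set against old WT bears on p16 loss in old cells, and old WT against young WT on donor age.

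Of 43020 spots, 58.4% were well above background on old p16-/-, 61.6% on old WT and 57.4% on young WT, and none was saturated. Signals are processed intensities on a linear scale, and ratios are differences of log2 signal after subtraction of each array's 75th percentile. A ratio of single spots had a median SD of 0.0775 log2 units for old p16-/- over old WT and 0.0777 for old WT over young WT, read from probes spotted several times. This SD covers spot noise on the array and not the spread between cultures or mice. Of 12 fibroblast markers, 12 were above background on old p16-/- (summed signal 798880), 12 on old WT (925335) and 11 on young WT (912597). They moved to both sides between old p16-/- and old WT, with Thy1, Mfap5 and Dpt at least 2-fold lower (log2 ratios of -3.99, -1.85 and -1.19) and Pdgfra and Fap 3.03-fold and 2.83-fold higher on old p16-/-. Cdkn2a gave 28065 on old p16-/-, 65464 on old WT and 62705 on young WT. Whether its probes fall inside the deletion is unknown, so they do not check the genotype. The Y-linked gene Ddx3y had a signal of 3949 on young WT, and on neither old array was it well above background. Xist, the RNA of the inactive X chromosome, gave 1387 on old p16-/- and 1548 on old WT, and on young WT it did not exceed background. Donor age and sex-linked expression cannot be told apart wherever young WT is the denominator. In RNA from mixed cells, fewer cells of a type and less RNA per cell cannot be told apart either.

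Among members above background on both arrays, Col2a1, Col10a1 and Col11a1 had the highest ratios of old p16-/- over old WT, and Col7a1 and Col5a1 the lowest. No promoter window was listed for Col2a1. The promoters of the rest are shown with that of Col1a2, which barely differed (5 promoters in all). Each is the 250 bases upstream of the RefSeq transcription start on GRCm38.p6, read 5′ to 3′ on the plus strand, with the CCAAT box (CCAAT or its complement ATTGG) and the TATA box (TATAAA or TTTATA) in capitals. Col11a1 encodes a minor fibrillar chain of cartilage (chr3:114030290-114030539), Col10a1 the collagen of hypertrophic cartilage (chr10:34389731-34389980) and Col7a1 the anchoring fibril collagen of skin (chr9:108953336-108953585). Col5a1 encodes the collagen V chain that starts fibril assembly (chr2:27886175-27886424), and Col1a2 a chain of collagen I (chr6:4505368-4505617).
Col11a1: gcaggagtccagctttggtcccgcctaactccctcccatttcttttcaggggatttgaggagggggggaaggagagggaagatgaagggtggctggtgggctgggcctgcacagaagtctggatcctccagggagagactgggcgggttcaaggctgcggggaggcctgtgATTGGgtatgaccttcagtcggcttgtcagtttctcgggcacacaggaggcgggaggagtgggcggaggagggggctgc
Col10a1: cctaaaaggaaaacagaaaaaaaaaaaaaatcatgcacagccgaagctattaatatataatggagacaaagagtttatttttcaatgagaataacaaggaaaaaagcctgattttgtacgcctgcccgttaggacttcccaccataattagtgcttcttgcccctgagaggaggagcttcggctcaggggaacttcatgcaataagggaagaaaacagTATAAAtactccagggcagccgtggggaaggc
Col7a1: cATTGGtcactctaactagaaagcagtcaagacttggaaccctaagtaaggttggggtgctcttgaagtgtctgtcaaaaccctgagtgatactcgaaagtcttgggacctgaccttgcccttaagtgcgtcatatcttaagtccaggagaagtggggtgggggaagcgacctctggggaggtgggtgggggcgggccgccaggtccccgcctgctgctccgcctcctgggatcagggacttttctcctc
Col5a1: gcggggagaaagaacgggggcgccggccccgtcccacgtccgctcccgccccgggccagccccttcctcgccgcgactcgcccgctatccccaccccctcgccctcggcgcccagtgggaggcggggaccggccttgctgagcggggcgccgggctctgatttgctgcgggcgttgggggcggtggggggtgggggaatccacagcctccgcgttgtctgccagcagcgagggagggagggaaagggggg
Col1a2: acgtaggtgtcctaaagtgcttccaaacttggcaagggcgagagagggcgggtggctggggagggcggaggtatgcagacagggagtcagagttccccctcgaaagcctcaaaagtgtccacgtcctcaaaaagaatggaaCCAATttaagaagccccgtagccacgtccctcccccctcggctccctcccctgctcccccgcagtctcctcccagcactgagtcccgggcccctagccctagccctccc

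Promoter windows were listed for 30 of the 38 members (33 windows, each running from 250 bases before to 50 after a start). On either strand, 12 of the 33 windows (36.4%) held CCAAT, against 37.4% of 32851 windows of all genes. TATAAA was in 5 (15.2%), against 13.6% of all, and in Col10a1 it began 32 bases before the start. ACAAT (or ATTGT), the core of the sequence bound by Sox factors, was in 1 window (3.03%), that of Col3a1, against 31% of all. CCAAT began 79 bases before the start in Col11a1, 109 in Col1a2 and 249 in Col7a1, and neither CCAAT nor TATAAA was found in the Col5a1 window. The letters in these windows are a description, and the members printed do not share 1 arrangement.

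Of the 37 matched members, 25 were above background on all 3 arrays, 5 on some and 7 on none. By array, 28 were above background on old p16-/-, 26 on old WT and 26 on young WT. The 7 were Col4a3, Col19a1, Col22a1, Col8a2, Col15a1, Col13a1 and Col23a1, and no ratio is given for them. A comparison counted a gene when at least 1 of its 2 arrays was above background. Where only 1 was, the ratio is a bound set by the lowest level above background on the dim array or the dim probe's own level, whichever is higher.

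**Figure D1:**
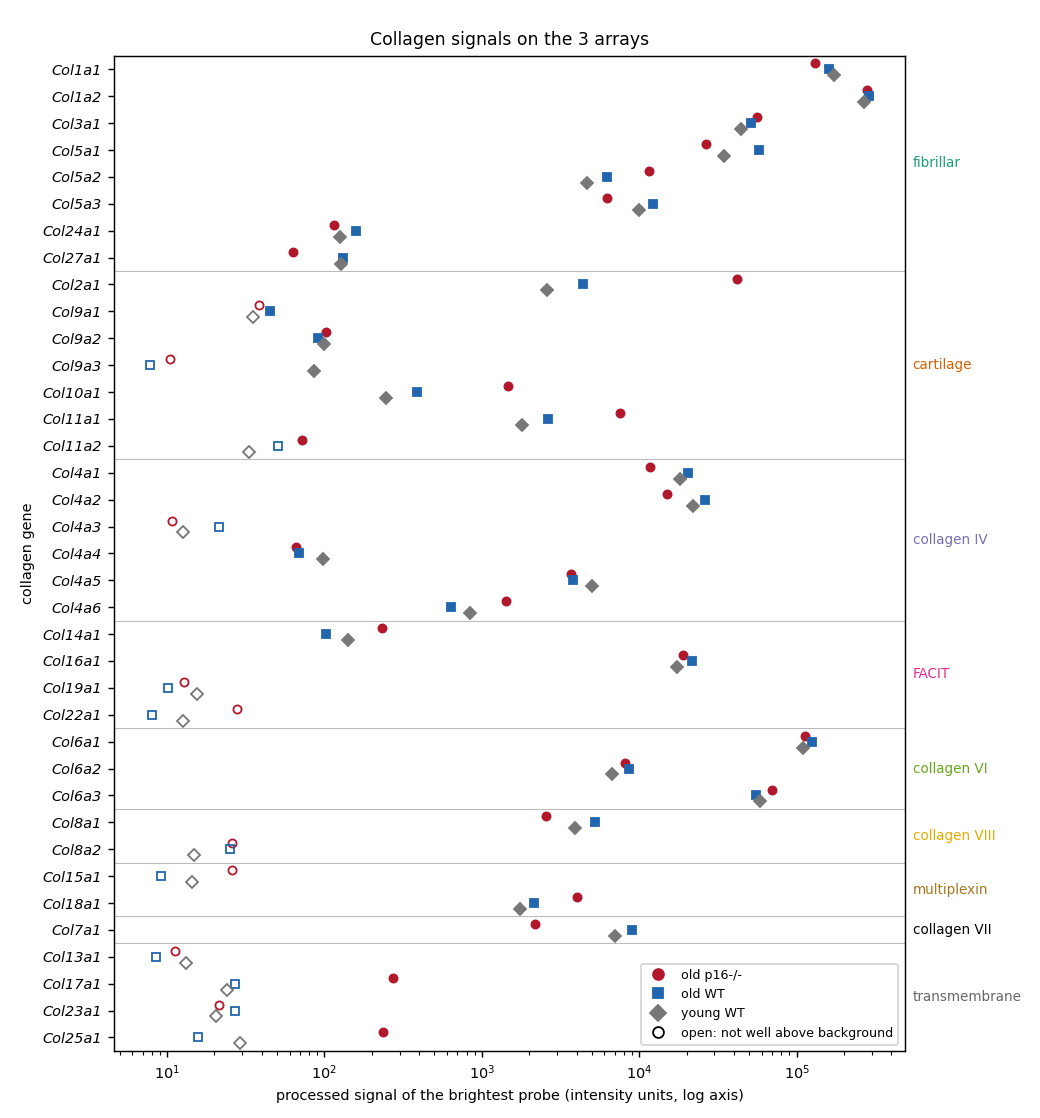
Processed signal (intensity units, log axis) of the brightest probe of the 37 matched collagen genes, by class, on the old p16-/- (circles), old WT (squares) and young WT (diamonds) arrays, 1 array per group; open symbols were not well above background. Among genes with 3 filled symbols, Col2a1 stands furthest to the right of its other symbols on old p16-/- (42066.5 against 4376 and 2580.2), and Col7a1 furthest to the left (2190.0 against 9046 and 7057).

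Between old p16-/- and old WT, the cartilage genes Col2a1, Col10a1 and Col11a1 were higher, and the rest of the cartilage class was dim. Col7a1, the collagen V chain Col5a1, and Col8a1 were lower, and collagens I, III and VI barely differed. Col27a1, a fibrillar collagen of cartilage counted here in the fibrillar class and not the cartilage class, was lower (-1.06). Of 29 counted members, 7 were higher by 2-fold or more and 4 were lower by as much, where 5.89% and 6.61% of all 14691 counted genes were. Col17a1 and Col25a1, among the 7, were counted only through old p16-/-, the array on which they were high. With both arrays above background, 5 of 25 members were higher and 4 lower, where 4.15% and 5.02% of 13292 genes were. The members' median log2 ratio was -0.05, against 0.02 over all genes. By class the median was -0.39 for the fibrillar collagens (8 counted), 1.00 for the cartilage collagens (6) and -0.07 for collagen IV (5). The cartilage median includes bounds and depends on the filter, as it was 0.48 with no filter, 0.85 under normexp background correction and 1.72 with both arrays above background. The collagen IV median was -0.44 with no filter. Among genes whose brighter array reached a signal of 1000, 4 of 20 members were 2-fold higher and 3 lower, where 2.67% and 4.21% of 8835 genes were. Of those 4, Col10a1 and Col4a6 reached 1000 on old p16-/- alone of these 2 arrays, so nothing is read from that count.

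**Figure D2:**
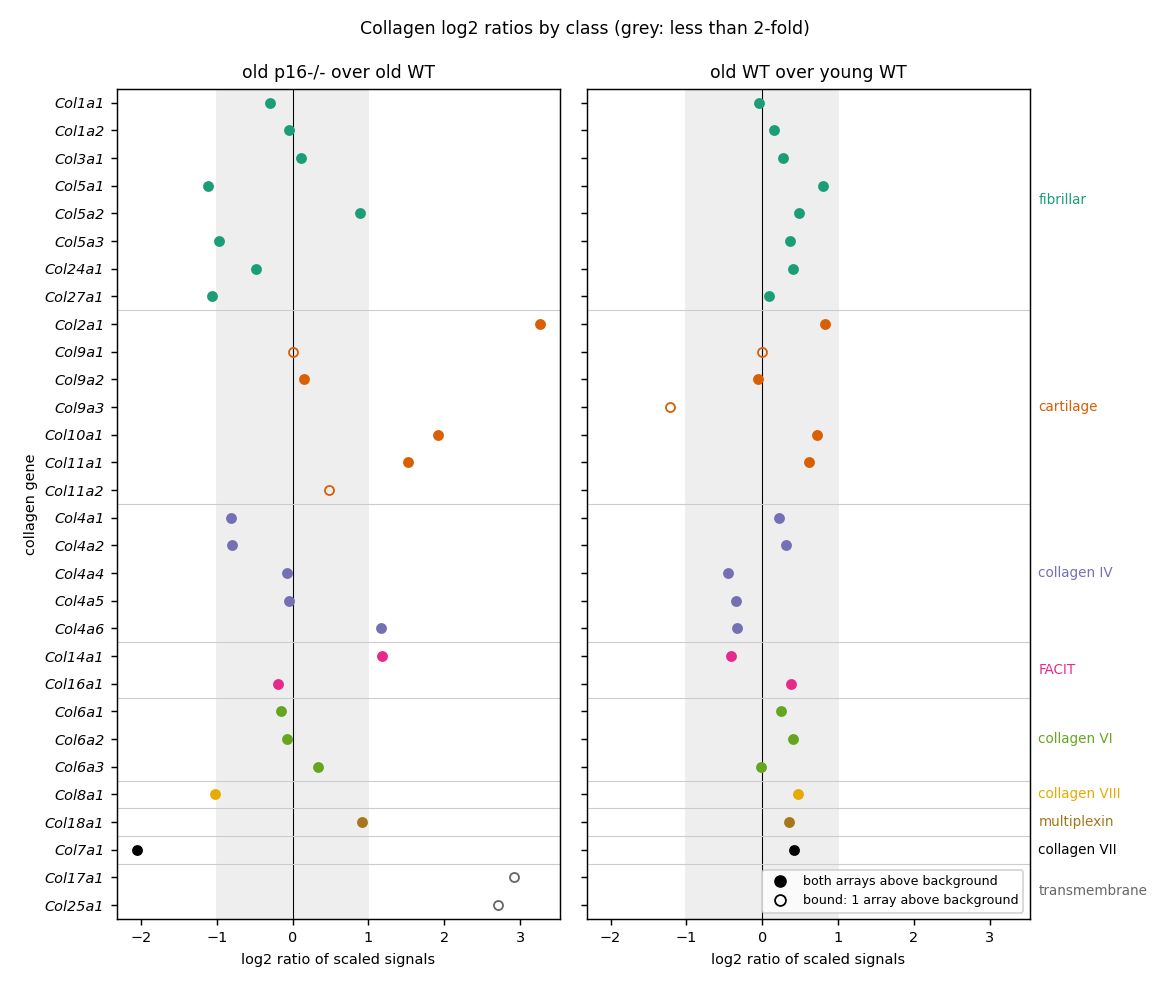
Log2 ratio of scaled signals for each counted collagen gene, by class, for old p16-/- over old WT (left) and old WT over young WT (right); filled points had both arrays above background, open points are bounds, and grey spans less than 2-fold. In the left panel Col2a1 (3.26) and Col7a1 (-2.05) lie at opposite ends, and in the right panel Col9a3, a bound at -1.21, is the only gene outside the grey.

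Among the cartilage collagens, Col2a1, the fibrillar collagen of cartilage, had processed signals of 42066.5 on old p16-/-, 4376 on old WT and 2580.2 on young WT. Its log2 ratio was 3.26 for old p16-/- over old WT, a 9.58-fold difference that ranked 71 from the highest of 14691 genes. The old p16-/- signal stood apart, while old WT lay 1.77-fold above young WT. Col11a1, whose chain copolymerises with collagen II, gave 7586 on old p16-/-, 2632 on old WT and 1795 on young WT. The log2 ratios were 1.52 for old p16-/- over old WT and 0.61 for old WT over young WT. Col10a1, the collagen of hypertrophic cartilage, gave 1475 on old p16-/-, 389.8 on old WT and 246 on young WT, at 1.92 (3.77-fold) and 0.73. The order of the arrays was the same for these 3 genes, with old p16-/- highest and young WT lowest. Each step was larger than the spot noise.

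The other 4 cartilage genes were dim on every array, and none was 2-fold apart between old p16-/- and old WT. Col11a2, the other minor fibrillar chain, was above background on old p16-/- alone, at 71.6, and was not well above it on old WT (51.1) or young WT (33.0). Its log2 ratio for old p16-/- over old WT was at least 0.48. Col9a2, a chain of the FACIT that coats cartilage fibrils, gave 102 on old p16-/-, 91.3 on old WT and 98.9 on young WT, a log2 ratio of 0.15 for old p16-/- over old WT. Its partner Col9a1 was above background on old WT alone, at 44.9, with 38.5 on old p16-/- and 35.3 on young WT, so that no difference could be bounded. Col9a3 was above background on young WT alone, at 86.2, with 10.5 on old p16-/- and 7.84 on old WT. No collagen IX chain was thus above background and higher on old p16-/- beyond 2-fold.

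Of 16 further chondrocyte markers, 9 were above background on old p16-/- (summed signal 102969), 8 on old WT (116824) and 6 on young WT (81189). Prg4 (lubricin, of joint surfaces) made up most of these sums, at 71535 on old p16-/-, 82532 on old WT and 51879 on young WT. Of 11 counted, 3 were at least 2-fold higher and 1 lower on old p16-/- than on old WT, where 5.89% and 6.61% of all genes were. These 3 (Acan, Cnmd and Cytl1) were counted only through old p16-/-, the array on which they were high. Their signals lay in a range where stray spots of dim probes were called above background on that array (up to 870.4). Acan, the core protein of cartilage proteoglycan, had 218 on old p16-/- and was not well above background on old WT (37.9) or young WT (31.4). Cnmd (chondromodulin) and Cytl1 were likewise above background on old p16-/- alone, at 274 and 244. On no array were Matn3, Snorc, Ucma, Epyc or Chad, further genes of cartilage, well above background. Hapln1, the link protein of cartilage proteoglycan, gave 1986 on old p16-/-, 1166 on old WT and 262 on young WT, the same order as collagen II. Comp, a cartilage and tendon matrix gene, gave 2183 on old p16-/-, 6288 on old WT and 2414 on young WT, which ran against collagen II. Sox9, the factor that drives Col2a1 in chondrocytes, gave 528 on old p16-/-, 545 on old WT and 446 on young WT, at -0.05 for old p16-/- over old WT. Its partner Sox5 gave 25618 on old p16-/-, 25751 on old WT and 25633 on young WT, at -0.01, so neither factor followed the collagens. Of 9 matched osteoblast markers, 6 were above background on old p16-/- (summed signal 84819), 5 on old WT (56151) and 5 on young WT (40683), and on no array were Sp7, Phex or Dmp1 well above it. The part of chondrocyte or osteoblast cells in the collagen signals was not tested.

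Among the interstitial fibrillar collagens, the chains of collagen I, the main collagen of dermis, differed little. Col1a1 gave 130176 on old p16-/-, 159574 on old WT and 171773 on young WT, and Col1a2 gave 278025 on old p16-/-, 287389 on old WT and 269481 on young WT. Their log2 ratios for old p16-/- over old WT were -0.30 and -0.05, and the 2 chains of this heterotrimer differed by -0.25. Col3a1, which forms fibrils with collagen I in soft tissue, gave 55773 on old p16-/-, 51524.5 on old WT and 44307 on young WT, at 0.11 for old p16-/- over old WT. These 3 bright genes lay well within 2-fold in every comparison.

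Collagen V, which sets the diameter of collagen I fibrils, split by chain. Col5a1 gave 26656 on old p16-/-, 57526 on old WT and 34368 on young WT, so that old WT was the high array. Its log2 ratio for old p16-/- over old WT was -1.11, a 2.16-fold lower signal. Col5a2, the usual partner of Col5a1 in the heterotrimer, ran the other way, with 11576 on old p16-/-, 6240.3 on old WT and 4637 on young WT, at 0.89. The log2 ratios of the 2 chains differed by -2.001, the widest gap among the pairs of chains of 1 collagen compared. Col5a3, the chain of a less common form, gave 6264 on old p16-/-, 12268 on old WT and 9923 on young WT, at -0.97, which lay close to Col5a1. Col5a2 lies next to Col3a1 on chromosome 1, and that neighbour was at 0.11.

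The remaining fibrillar genes were dim. Col24a1, a fibrillar collagen of developing bone, gave 115 on old p16-/-, 159 on old WT and 125 on young WT, at -0.48 for old p16-/- over old WT. Col27a1, a fibrillar collagen of cartilage, gave 63.0 on old p16-/-, 131 on old WT and 128 on young WT, at -1.06. That value fell inside 2-fold under normexp background correction, quantile normalization and cyclic loess, the smallest difference being -0.53. In all, 2 of the 8 fibrillar genes were at least 2-fold lower on old p16-/- than on old WT and none was 2-fold higher, where 6.61% and 5.89% of all genes were. Of the 8, 6 lay below 0, as did 6864 of all 14691 counted genes.

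In the basement membrane class, Col4a1 and Col4a2 encode the chains of the common collagen IV network and are transcribed in opposite directions from 1 shared promoter on chromosome 8. The stretch that spans both RefSeq starts is shown. It is chr8:11312801-11312830 of GRCm38.p6, plus strand, with capitals from the Col4a2 start to the Col4a1 start, 22 bases in all. Col4a2 lies on the plus strand and Col4a1 on the minus strand, so the 2 annotated transcripts overlap in these bases. The capitals thus lie inside both transcripts and are not promoter sequence between the starts.
Col4a2 and Col4a1: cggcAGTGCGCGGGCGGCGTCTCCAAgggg
Col4a1 gave 11615 on old p16-/-, 20367 on old WT and 18187 on young WT, and Col4a2 gave 15064 on old p16-/-, 26178 on old WT and 21983 on young WT. The log2 ratios for old p16-/- over old WT were -0.81 and -0.80, and they differed by 0.01 in size, less than the spot noise. Col4a1 was the only member spotted 10 times, and its spots averaged 11631 ± 634 on old p16-/-, 20386 ± 914 on old WT and 18207 ± 878 on young WT (SD over 10 spots of 1 array). The old p16-/- spots reached 12458 at most, and the lowest old WT spot was at 18285, so these spots did not overlap.

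Col4a5 and Col4a6, the X-linked chains of a more restricted network, are also transcribed in opposite directions. Their starts point away from each other, with 1344 bases from start to start. Col4a5 gave 3706 on old p16-/-, 3812 on old WT and 5042 on young WT, at -0.05 for old p16-/- over old WT. Col4a6 gave 1434 on old p16-/-, 638 on old WT and 835 on young WT, at 1.16. Unlike the first pair, these neighbours differed by 1.21 log2 units in size. The result for Col4a6 rests on 1 probe, since the other gave 186 on old p16-/-, 189 on old WT and 224 on young WT, at -0.03. Col4a4, a chain of kidney and lung basement membranes, gave 66.03 on old p16-/-, 69.0 on old WT and 98.4 on young WT, at -0.07. Another of its probes gave 130.3 on old p16-/-, 112 on old WT and 16.4, not well above background, on young WT, so its ratio over young WT has no settled direction.

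Among the FACITs, Col16a1, a FACIT of dermal and smooth muscle matrix, gave 18865 on old p16-/-, 21525 on old WT and 17273 on young WT, at -0.19 for old p16-/- over old WT. Its other probes gave -0.58 and -1.13, so the direction was shared and the size was not. Col14a1, which binds fibrils in dense connective tissue, gave 233 on old p16-/-, 102 on old WT and 142 on young WT, at 1.18. Its other probe gave 104 on old p16-/-, 111 on old WT and 89.2 on young WT, at -0.11, so the difference was seen by 1 of 2 probes. Only these 2 of the 4 matched FACIT genes could be compared, with Col19a1 and Col22a1 below background throughout.

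**Figure D3:**
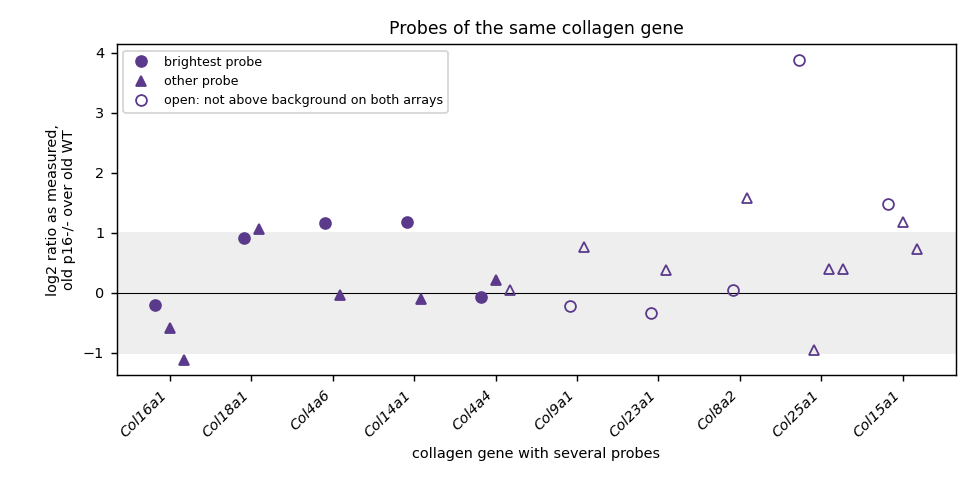
Log2 ratio as measured, old p16-/- over old WT, for each probe of the 10 collagen genes with several probes; circles are the brightest probe, triangles the others, open symbols were not above background on both arrays, and grey spans less than 2-fold. The probes of Col18a1 lie together at 0.91 and 1.07, whereas those of Col4a6 (1.16 and -0.03) and Col14a1 (1.18 and -0.11) lie apart.

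Collagen VI, the beaded filament of the cell surroundings, differed little in any chain. Col6a1 gave 112988 on old p16-/-, 124790 on old WT and 109452 on young WT, a log2 ratio of -0.15 for old p16-/- over old WT. Col6a2 gave 8153 on old p16-/-, 8582 on old WT and 6742 on young WT, at -0.08. Col6a3, whose long chain completes the trimer, gave 69588 on old p16-/-, 55208 on old WT and 58446 on young WT, at 0.33. Col6a1 and Col6a2, neighbours on chromosome 10, differed by 0.07 in size.

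The lowest ratio in the family was that of Col7a1, the anchoring fibril collagen that ties epidermis to dermis. It gave 2190.0 on old p16-/-, 9046 on old WT and 7057 on young WT, so that old p16-/- alone was low. The log2 ratio was -2.05 for old p16-/- over old WT, 4.14-fold lower and 262 from the lowest of 14691 genes. Col8a1, a short-chain collagen of vessel wall and cornea, gave 2572 on old p16-/-, 5229 on old WT and 3934 on young WT, at -1.03. It stood at the 2-fold mark, and normexp correction put it at -0.995. Col18a1, the multiplexin that releases endostatin, gave 4023 on old p16-/-, 2136 on old WT and 1737 on young WT, at 0.91. Its other probe gave 3004 on old p16-/-, 1424 on old WT and 1199 on young WT, at 1.07, so both probes were higher on old p16-/-.

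Of 9 smooth muscle markers, 6 were above background on old p16-/- (summed signal 183817), 8 on old WT (535962) and 8 on young WT (462012). Of 8 counted, 4 were at least 2-fold lower on old p16-/- than on old WT, where 6.61% of all genes were. Acta2, the actin of myofibroblasts and smooth muscle, gave 42072 on old p16-/-, 165017 on old WT and 148230 on young WT, whereas on no array was Des well above background. Of 11 keratinocyte markers, 6 were above background on old p16-/- (summed signal 116298), 7 on old WT (49823) and 6 on young WT (52362). Perp made up most of these sums, at 106515 on old p16-/-, 40631 on old WT and 41489 on young WT, and on no array were Krt15, Krt1, Dsg3 or Dsc3 well above background. Lor and Ivl, genes of the cornified envelope, were at least 2-fold lower on old p16-/- than on old WT (-1.25, and a bound at -1.23). Of 9 Schwann cell markers, 7 were above background on old p16-/- (summed signal 13061), 6 on old WT (6402) and 6 on young WT (4167), and Erbb3 was among those below it on all 3 arrays. For old p16-/- over old WT, 3 of 7 counted were 2-fold higher and 1 lower, where 5.89% and 6.61% of all genes were. Of 10 epithelial markers, 9 were above background on old p16-/- (summed signal 5146), 7 on old WT (1815) and 8 on young WT (2436), and Cldn4 was below it on all 3 arrays. Of 9 counted, 2 of them as bounds, 3 were 2-fold higher on old p16-/- than on old WT and none lower, beside the same shares. Of 10 endothelial markers, 4 were above background on old p16-/-, 4 on old WT and 3 on young WT. Of 6 tendon markers, 5 were above background on old p16-/- (summed signal 26145), 6 on old WT (26233) and 6 on young WT (32201). Of these, 3 were at least 2-fold lower on old p16-/- than on old WT, where 6.61% of all genes were. They were Thbs4 (-2.12), Tnc (-1.53) and Tnmd (a bound at -1.89). Thbs4 gave 311 on old p16-/-, 1346 on old WT and 11696 on young WT. The part of these cell types in the collagen signals was not tested.

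Of the transmembrane collagens, Col17a1, a hemidesmosome collagen of basal keratinocytes, was above background on old p16-/- alone, at 271, with 27.2 on old WT and 24.2 on young WT. It was at least 7.57-fold higher on old p16-/- than on old WT. Col25a1, a collagen of neurons, gave 235 on old p16-/- and was not well above background on old WT (15.8) or young WT (29.2), at least 6.56-fold. Its other 3 probes were below background on all arrays. Both values rest on 1 spot each in a range where stray spots occur: of 1400 spots of dim probes spotted several times on the old p16-/- array, 69 (4.93%) were called above background, with signals of up to 870.4.

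**Figure D4:**
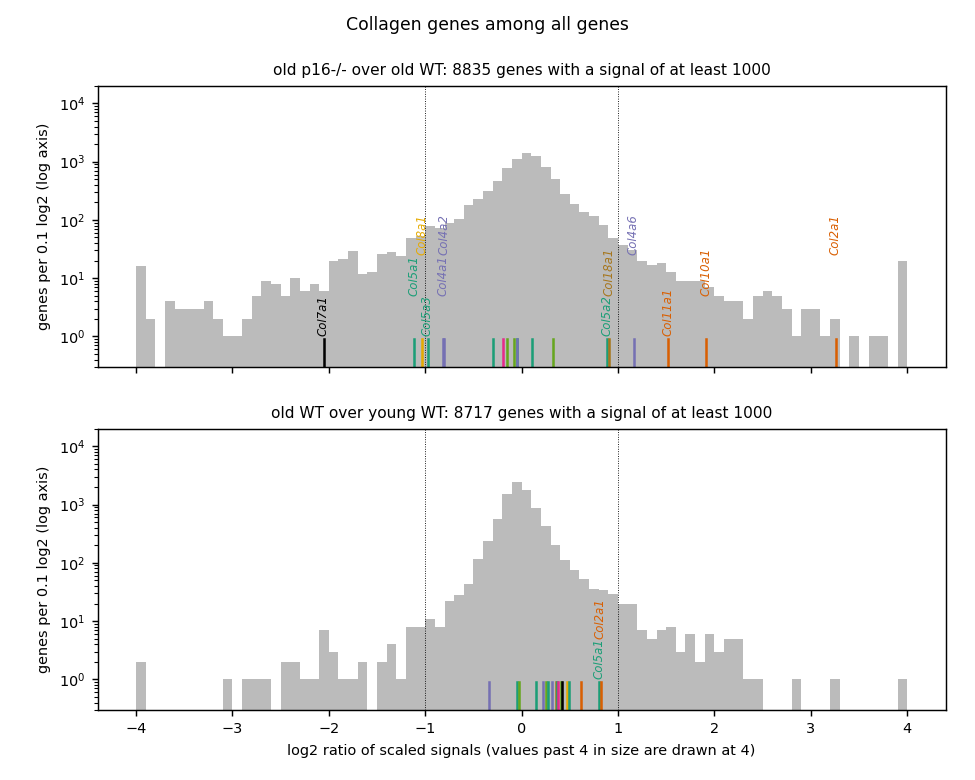
Number of genes per 0.1 log2 (log axis) by log2 ratio of scaled signals, for genes whose brighter array reached a signal of 1000, with collagen genes as coloured ticks and the names of those furthest from 0; upper panel old p16-/- over old WT (8835 genes), lower panel old WT over young WT (8717). In the upper panel 4 of 20 collagen ticks lie at least 2-fold higher and 3 lower (dotted lines), where 2.67% and 4.21% of all genes do. Col10a1 and Col4a6 reached 1000 on old p16-/- alone of these 2 arrays, so nothing is read from that count. In the lower panel none of 18 ticks does, where 1.17% of all genes lie 2-fold higher and 0.562% lower.

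Between old WT and young WT, the collagens differed by small amounts, most of them upward. Of 27 counted members, 0 were higher by 2-fold or more and 1 was lower by as much, where 2.92% and 3.17% of 14546 genes were. With a signal of 1000 on the brighter array it was 0 and 0 of 18 members, where 1.17% and 0.562% of 8717 genes were. Of the 27, 18 lay above 0, where 47.4% of all genes did, and the median was 0.28 against -0.00024 over all genes. The 1 lower gene was Col9a3, at least 2.32-fold, which rests on 1 dim spot on young WT and fell inside 2-fold under normexp correction and cyclic loess. The highest members were Col2a1 (0.82), Col5a1 (0.80), Col10a1 (0.73) and Col11a1 (0.61).

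By class, the median of old WT over young WT was 0.32 for the fibrillar collagens, of which 7 of 8 lay above 0, and 0.31 for the cartilage collagens (0.67 with both arrays above background). Among the fibrillar genes the log2 ratios were 0.49 for Col5a2, 0.41 for Col24a1, 0.37 for Col5a3, 0.28 for Col3a1, 0.15 for Col1a2, 0.09 for Col27a1 and -0.05 for Col1a1. The collagen V chains thus stood further from 0 than the collagen I chains. In collagen IV, Col4a2 was at 0.31 and Col4a1 at 0.22, and the X-linked Col4a5 and Col4a6 were at -0.34 and -0.33. The median of the class was -0.33, and its sign rests on the dim Col4a4 (-0.45), as it became 0.22 when the probes of a gene were averaged. Outside these classes, Col8a1 was at 0.47, Col7a1 at 0.42, Col6a2 at 0.41, Col16a1 at 0.38, Col18a1 at 0.36, Col6a1 at 0.25, Col6a3 at -0.02 and Col14a1 at -0.41. Col7a1, Col8a1 and Col5a1 were thus higher on old WT than on young WT and lower on old p16-/- than on old WT. The 2 comparisons share the old WT array, whose error enters both with opposite sign.

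Set against young WT directly, old p16-/- had 7 of 29 counted members higher by 2-fold or more and 1 lower, where 6.34% and 6.96% of 14281 genes were. The highest was Col2a1, at 4.08 (16.9-fold), followed by Col10a1 at 2.64 and Col11a1 at 2.13. Col17a1 and Col25a1 were at least 5.08-fold and 4.40-fold higher. Both were among the 7 but were counted only through old p16-/-, the array on which they were high. Each rests there on 1 dim spot, in the range where stray spots occur. Col5a2 (1.38) and Col18a1 (1.27) also passed 2-fold here, and Col7a1 was the lower gene, at -1.63. Col5a1 was at -0.31. For genes measured on all arrays, this ratio is the sum of the other 2 and adds no new measurement.

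All 20 genes that modify and fold procollagen in the endoplasmic reticulum were counted, and 1 ratio of old p16-/- over old WT, that of Colgalt2, was a bound. Of 20, 1 was at least 2-fold higher and 1 lower on old p16-/- than on old WT, near the shares of all genes (5.89% and 6.61%), and the median was -0.17. P3h2, a prolyl 3-hydroxylase known to act on collagen IV, gave 295 on old p16-/-, 95.2 on old WT and 80.4 on young WT, at 1.63. Colgalt2, a collagen galactosyltransferase, did not exceed background on old p16-/- (13.2) but had 210.3 on old WT and 219 on young WT. The abundant members stayed close, with the collagen chaperone Serpinh1 at -0.25, the 4-hydroxylase subunit P4hb at 0.10, Fkbp10 at -0.17 and the telopeptide lysyl hydroxylase Plod2 at 0.34. For old WT over young WT, 18 of the 20 lay above 0, where 47.4% of all genes did. None was 2-fold apart, and Plod2 was the highest, at 0.76. All 11 procollagen export genes lay within 2-fold in both comparisons, with medians of -0.07 for old p16-/- over old WT and 0.04 for old WT over young WT. Their highest values were 0.09 (Sar1a) and 0.59 (Creb3l1, a factor that activates secretory and collagen genes).

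Among the enzymes that cross-link collagen outside the cell, Loxl1 and Loxl2 were lower on old p16-/- than on old WT. They were 2 of 6 lysyl oxidases and transglutaminase, with none at least 2-fold higher, where 6.61% of all genes were lower and 5.89% higher. The list had 2 genes above 0 and a median of -0.42. Loxl1, a lysyl oxidase of elastic tissue, gave 3922 on old p16-/-, 12289 on old WT and 16679 on young WT, at -1.65. Loxl2, an oxidase that acts on collagen IV, gave 10534 on old p16-/-, 25810 on old WT and 17623 on young WT, at -1.30. Loxl2 was thus highest on old WT, as Col5a1 was, whereas Loxl1 was highest on young WT. Lox was at -0.33, Loxl3 at -0.52, Loxl4 at 0.12 and Tgm2 at 0.52. Of 6 counted propeptide genes, 1 was 2-fold lower and none higher, beside the same shares of all genes (6.61% and 5.89%). The lower gene was Adamts14, an N-propeptidase, which gave 1046 on old p16-/-, 2332 on old WT and 1592 on young WT, at -1.16. The C-propeptidase Bmp1 was at -0.67, its enhancers Pcolce and Pcolce2 at -0.07 and 0.59, and Adamts2 at -0.0013. No gene of either list was 2-fold apart between old WT and young WT, the highest being Adamts2 at 0.98.

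**Figure D5:**
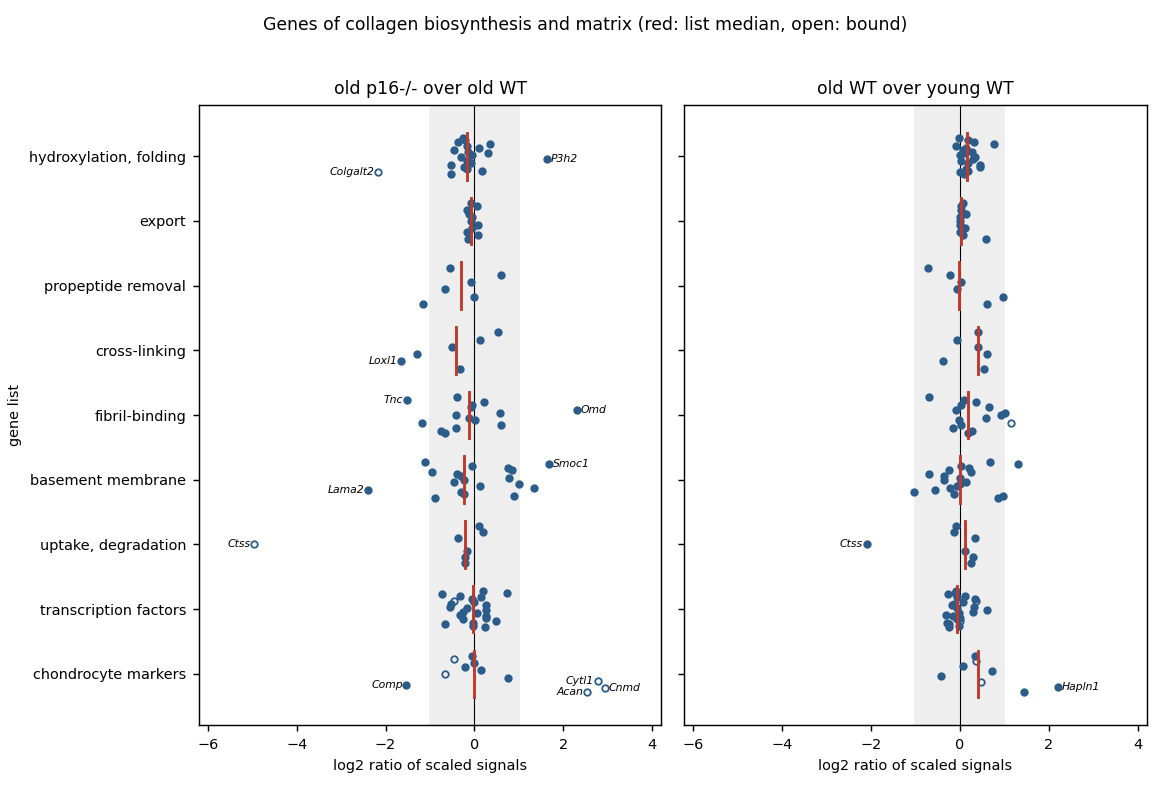
Log2 ratio of scaled signals for the genes of 8 lists around collagen and of the chondrocyte markers, for old p16-/- over old WT (left) and old WT over young WT (right); each point is a gene, open points are bounds, red bars are list medians, grey spans less than 2-fold, and genes at 1.5 or more in size are named. The export genes cluster at 0 in both panels, while fibril-binding and basement membrane genes spread to both sides in the left panel.

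Among proteins that bind collagen fibrils, 1 of 15 counted was at least 2-fold higher and 2 lower on old p16-/- than on old WT. Of all genes, 5.89% and 6.61% were, and the median of the list was -0.13. Omd, osteomodulin of bone matrix, gave 2559 on old p16-/-, 517 on old WT and 569.6 on young WT, at 2.30. Tnc, the wound matrix glycoprotein tenascin C, gave 865 on old p16-/-, 2488 on old WT and 2437 on young WT, at -1.53, and Dpt (dermatopontin) was at -1.19 with dim signals of 52.0 on old p16-/- and 118 on old WT. Decorin (Dcn) was at 0.59, biglycan (Bgn) at -0.76, lumican (Lum) at -0.41 and fibronectin (Fn1) at -0.13. For old WT over young WT, Ogn (1.00) and the dim Dpt (a bound at 1.16) were higher and none lower.

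Of 19 partners of collagen IV in basement membranes, 3 were at least 2-fold higher and 2 lower on old p16-/- than on old WT, where 5.89% and 6.61% of all genes were. Lama2, the laminin chain of muscle and nerve, gave 588 on old p16-/-, 3081 on old WT and 4773 on young WT, at -2.39. Smoc2 gave 52666 on old p16-/-, 113556 on old WT and 74133 on young WT, at -1.11. Smoc1 gave 1140.2 on old p16-/-, 354 on old WT and 149.8 on young WT, at 1.68. Lama3, an epithelial laminin chain, gave 649 on old p16-/-, 254 on old WT and 309.6 on young WT, at 1.35. Nid1, which links laminin to collagen IV, was at -0.96 and thus near Col4a1 and Col4a2, whereas its relative Nid2 was at 0.84. Perlecan (Hspg2) was at -0.23 and the collagen IV cross-linking peroxidase Pxdn at -0.07. The list moved to both sides, with a median of -0.23. For old WT over young WT, Smoc1 (1.30) was 2-fold higher and Lama1 (-1.04) 2-fold lower.

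Of 7 genes of collagen uptake and lysosomal breakdown, 1 was at least 2-fold lower in each comparison. Of all genes, 6.61% were for old p16-/- over old WT and 3.17% for old WT over young WT. The gene was Ctss, which was not well above background on old p16-/- and had 1455 on old WT and 6500.0 on young WT. Old p16-/- was thus at least 31.1-fold lower than old WT. Ctss is also on the macrophage list, of which 4 of 12 matched genes were above background on old p16-/- (summed signal 2063), 11 on old WT (6304) and 11 on young WT (23911). On old p16-/-, Lyz2, Tyrobp and the C1q genes did not exceed background. Ptprc and Aif1, of the same list, were at least 2-fold higher on old p16-/- than on old WT, with Ptprc at 89.9 on old p16-/- and not well above background on old WT (35.9), and Aif1 at 186 on old p16-/- and 74.9 on old WT. Ptprc was counted in that comparison only through old p16-/-, the array on which it was higher, and was dim there. The part of these cells was not tested. The fibroblast uptake receptor Mrc2 was at -0.37 and the collagenolytic cathepsin Ctsk at -0.22 for old p16-/- over old WT.

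Of 24 counted transcription factors known to act on collagen genes, none was at least 2-fold apart between old p16-/- and old WT or between old WT and young WT. Of all genes, 5.89% were higher and 6.61% lower in the first comparison, and 2.92% and 3.17% in the second. For old p16-/- over old WT the values ran from -0.74 for Twist2 to 0.73 for Ybx1, a repressor of collagen I. Scx, the tendon factor that activates Col1a1, was at 0.25 and Smad3, which carries the signal of TGF-beta, at -0.54. Scx was the highest for old WT over young WT, at 0.60.

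Of 6 collagen genes outside the family list, Col6a5 gave 275 on old p16-/- and 77.5 on young WT and was not well above background on old WT (19.3), at least 7.69-fold higher on old p16-/- than on old WT. It was counted there only through old p16-/-, the array on which it was high. Its signal lay in the range where stray spots of dim probes were called above background on that array (up to 870.4). Col26a1 was above background on old WT alone, at 223. Col20a1, a FACIT, gave 64.9 on old p16-/-, 123 on old WT and 132 on young WT, at -0.92. On no array were Col6a4, Col6a6 or Col28a1 well above background.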

How the data were processed

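Total RNA of each group was hybridised to a 1-colour (Cy3) oligonucleotide array, 1 array per group. The scanner files deposited by the authors give background-subtracted spot intensities (linear, not normalized between arrays) made with Agilent Feature Extraction 11.5.1.1, per the file headers. The deposited value table held equal values for 39030 of 39030 single-spot probes (relative tolerance 0.0001). Precision is limited by the number of arrays.

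Control spots (1377) and outlier spots (267, 246 and 246 on old p16-/-, old WT and young WT) were left out. The log2 processed signal was averaged over a probe's spots, and each array's 75th percentile over probes was subtracted. Accessions were matched to RefSeq (GRCm38.p6), which named 27413 of 39279 probes. Probe coordinates were not used. A gene was called apart at a log2 ratio of 1 in size, on genes above background on at least 1 of 2 arrays. With 1 array per group no test was run.

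All members above background are named. Of each list around collagen, up to 4 genes 2-fold apart and up to 4 others are named. Of the cell type markers, those below background on all arrays are named, except the endothelial genes and part of the Schwann cell genes. The few named with values (Thy1, Mfap5, Dpt, Pdgfra, Fap, Acan, Cnmd, Cytl1, Hapln1, Prg4, Comp, Sox9, Sox5, Acta2, Perp, Lor, Ivl, Thbs4, Tnc, Tnmd, Ptprc, Aif1) were chosen after their values were seen. The members and lists were chosen with earlier results of these data known, and the signal minimum of 1000 comes from them. The ratio calculation was tested on simulated data. The alternatives were another background correction, 3 other scalings, 3 other filters, 2 other probe rules, outlier spots kept, and the value table, and 1 further filter was added after the data were seen. Python 3.11.15, numpy 2.4.6, pandas 2.3.3, R 4.3.3 and limma 3.58.1 were used.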

Additional observations from a re-analysis of the deposited data

How the results depend on the processing

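The 21 main counts and medians were recomputed under 11 alternatives fixed with the design and 1 chosen after seeing the data (both arrays above background and a signal of at least 1000). Of 252 values, 190 kept within 1.5 times the count or within the spot noise of the median. No paired analysis was possible because each group has 1 array. The value table, kept outlier spots, median centring and quantile normalization moved none of these counts and medians by more than those limits. Normexp was run on the median spot signal, since the mean spot signal was not used here. The median ratio of all genes shifted by less than 0.1 under every scaling.

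For old p16-/- over old WT, members at least 2-fold higher numbered 4 with a signal of at least 1000, under the added filter too, and those lower numbered 2 under normexp. The members' median was 0.044 with no filter. The fibrillar median was -0.18 with a signal of at least 1000 and under the added filter. The cartilage median was 0.85 under normexp, 1.72 with both arrays above background, 0.48 with no filter and 1.92 with a signal of at least 1000 and under the added filter. The collagen IV median was -0.44 with no filter and -0.42 under both signal filters. Col5a1, Col2a1, Col10a1, Col11a1 and Col7a1 stayed at least 2-fold apart in all 12 alternatives. Each of these genes has 1 probe, above background on both arrays, so most alternatives return nearly the same ratio by construction. The filters, probe rules, kept outlier spots and value table are of that kind, and only the background correction and the scalings could change the ratio. The bounds of Col17a1 and Col25a1 stayed at least 2-fold apart in the 9 alternatives that gave them a value. Filters that need both arrays above background or a signal of 1000 gave them none. The 9 reuse the same dim old p16-/- spot of each gene, so nothing is read from that count. Col4a6 and Col14a1 fell inside 2-fold under normexp and both other probe rules, and Col5a3 reached 2-fold under cyclic loess (-1.04).

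For old WT over young WT, members at least 2-fold higher numbered 1 under normexp and 1 with the mean of probes, in both cases Col4a4, whose probes disagree. Those lower numbered 0 under normexp, cyclic loess, both arrays above background and both signal filters. The members' median was 0.36 under both signal filters. The cartilage median was 0.67 with both arrays above background, 0.61 with no filter and 0.72 under both signal filters. The collagen IV median was 0.23 under normexp, -0.053 with no filter, and 0.22 under both signal filters, with the mean of probes and with the median ratio over probes. For old p16-/- over young WT, members at least 2-fold lower numbered 2 with no filter, and the members' median was 0.18 under normexp.

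Counts over all genes fell with stricter filters. For old p16-/- over old WT, genes at least 2-fold higher numbered 563 under normexp, 551 with both arrays above background, 1300 with no filter, 236 with a signal of at least 1000 and 230 under the added filter, and genes lower 1619 with no filter, 372 and 366 under those signal filters. For old WT over young WT the higher genes numbered 256, 237, 905, 102 and 101 in the same order, and the lower ones 266, 220, 788, 49 and 47. For old p16-/- over young WT the higher genes numbered 603, 562, 1439, 303 and 287, and the lower ones 648 with both arrays above background, 1508 with no filter, 372 and 354 under the signal filters. Fewer genes are tested under these filters by construction. Signal over background limits the dim members, and 36 of 37 matched members were spotted once per probe.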
